A study of Mus musculus with 20 samples.

Results

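The 87 genes described here had counts that ordered most closely with dose in both radiation types over 0 to 125 cGy. They exclude 26 p53 target genes set aside by name, but not other p53 targets. They came from RNA-seq of the thoracic aorta of 20 adult male wildtype C57BL/6 mice aged 10 to 12 weeks, collected 4 h after whole-body irradiation with protons (Proton) or with gamma rays from a cesium source (Gamma). Each radiation type had 1 mouse at each of 0, 5, 10, 25, 50, 75, 100, 125, 150 and 200 cGy, and the mice at 0 cGy were sham mice that were restrained in the irradiator without exposure. No dose was repeated within a radiation type, so a value at a dose is the count in 1 mouse, and the only repetition of a dose is across the 2 radiation types. Bulk tissue was sequenced, so a change in the number of cells of a type and a change in RNA per cell cannot be told apart.

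Of 21078 genes in the table of sense counts, 11363 reached a mean of 20 counts across the mice. For each of these the Spearman rank correlation of count with dose was taken over the 8 mice at 0 to 125 cGy of each radiation type, the smaller of the 2 correlations was kept, and the 100 genes with the highest smaller value were listed. Of these 100 genes, 13 were among 26 p53 targets named in the rule and were dropped: Cdkn1a, Aen, Mdm2, Bax, Slc19a2, Ephx1, Ccng1, Trp53inp1, Eda2r, 9030617O03Rik, Sesn2, Igf2r and Phlda3. All 87 remaining genes are accounted for below and all passed the count minimum. Because they were chosen by their counts over 0 to 125 cGy, those counts are given as a description with no test. The mice at 150 and 200 cGy took no part in the ranking by correlation, but they did count toward the mean of 20. Gtse1 reached that minimum only with them, as its mean over 0 to 125 cGy was 19.6 in Proton and 18.1 in Gamma.

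Radiation that breaks DNA activates the kinases that stabilize the transcription factor p53, which binds near its target genes and raises their transcription, and many targets arrest the cell cycle, repair DNA or promote apoptosis. A p53 binding site is built of 2 adjoining 10-base half-sites, each with a core of C, then A or T, then A or T, then G. The vessel wall of the aorta is mainly made of smooth muscle cells, which seldom divide in the adult. The smooth muscle marker list summed to between 160146 and 324203 counts per mouse and no marker on it was at 0 in all mice.

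The sites below are shown because the dropped genes are p53 targets and some members carry a like site. They are copies of the p53 consensus without a spacer, with the cores of both half-sites intact and at most 1 mismatch elsewhere. They lie within 2500 bases of the gene start on mm9, the build of the deposited counts. The 20-base site is in capitals with 5 flanking bases on each side, written on the strand of the gene.
Cdkn1a (dropped), chr17:29227868-29227897, upstream: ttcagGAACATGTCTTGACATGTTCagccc
Ccng1 (dropped), chr11:40568433-40568462, intron: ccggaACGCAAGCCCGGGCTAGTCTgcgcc
Gtse1, chr15:85690370-85690399, exon: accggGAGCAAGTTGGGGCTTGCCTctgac
Rps27l, chr9:66794098-66794127, intron: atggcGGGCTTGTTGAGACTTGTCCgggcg
Bloc1s2, chr19:44222757-44222786, upstream: ctgggCAGCATGCTTAGACTTGTCCcttgg
Galntl4, chr7:118925558-118925587, upstream: tatagGATCAAGTCCAGACTTGTCTacttg
The site lies -42 bases from the start of Cdkn1a, 248 bases into Gtse1 and 220 bases into Rps27l. In Bloc1s2 and Galntl4 it lies -1836 and -2082 bases from the start. Such a site was found in 4 of the 87 members (4.60%), in 2 of the 13 dropped genes (15.4%) and in 73 of the 11363 genes (0.642%). With at most 2 mismatches, again outside the cores, the shares were 7 of 87 members (8.05%) and 360 of 11363 genes (3.17%). The further members were Tubgcp2, Tbc1d2 and Ets2. Only Gtse1 and Rps27l of the 7 members with a site passed the test for higher counts at 150 and 200 cGy described below. A match of letters is a description and does not show that p53 binds there.

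Before the values, some facts of the libraries bear on them. The libraries had been resampled to a common depth and held 6051657 to 6058006 counts (median 6056776), so depth was alike between mice. Scaling factors (TMM) still ran from 0.966 (Gamma, 50 cGy) to 1.022 (Proton, 125 cGy), and the counts printed per mouse are not scaled by them. In the 4 mice at 150 and 200 cGy, deviations from the mean log2 count correlated with transcript GC content at -0.40 to -0.35 across 9702 genes, against -0.02 to 0.28 in the other 16 mice, so that a technical difference between libraries and the high doses cannot be told apart. Each high-dose result is therefore also given after an offset per library for GC content and transcript length. The Proton mouse at 75 cGy stood apart from the others of its dose range: its brown fat markers summed to 14128 counts against 923 to 5595 in the other 15 mice at 0 to 125 cGy, its heart muscle markers to 15100 against 21 to 263, and its smooth muscle markers to 160146 against 237977 to 324203. Fibroblast markers summed to 23738 to 32809 at 150 and 200 cGy and to 32432 to 57023 in the 16 mice at 0 to 125 cGy. The part of these differences in the members' counts was not tested except where a value without a mouse is given.

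**Figure D1:**
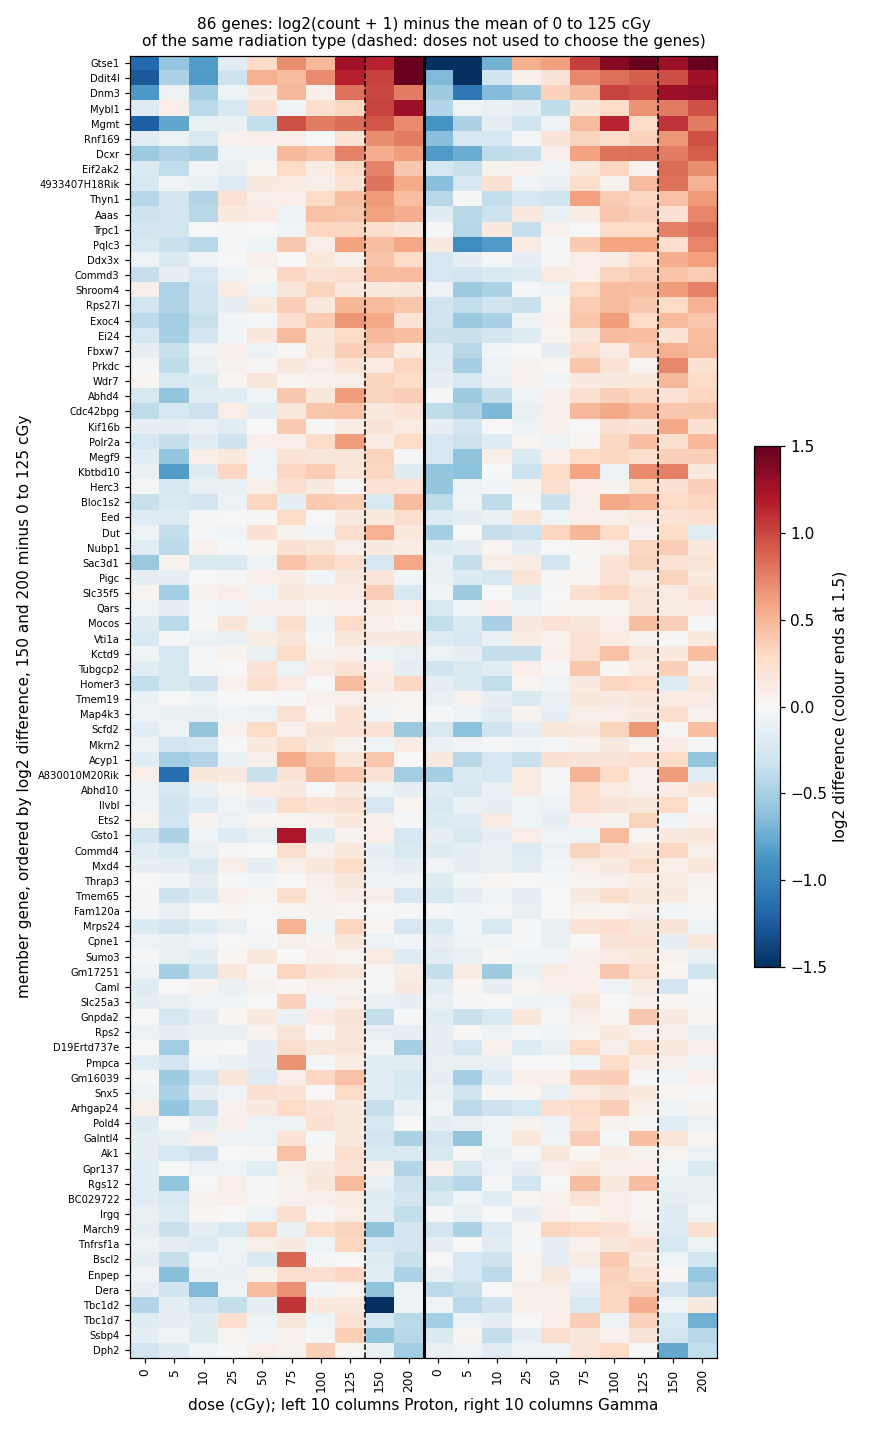
Colour shows log2(count + 1) of 86 of the 87 members in each mouse minus the mean of the 8 mice at 0 to 125 cGy of the same radiation type, with doses in cGy on the horizontal axis and genes on the vertical axis ordered by their difference at 150 and 200 cGy. Rows tend to run from blue to red up to 125 cGy because the genes were chosen for this. Past the dashed lines 55 of these 86 differences at 150 and 200 cGy are above 0 and the rest below it. Over all genes 45.4% are above 0.

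Over the doses that chose them, the smaller of the 2 rank correlations ran from 0.68 to 0.95 over the members with a median of 0.75, against a median of -0.14 over the 11363 genes. On the log2(count + 1) scale the median member differed by 0.33 per 100 cGy in Proton and by 0.38 in Gamma, against 0.03 and 0.04 for all genes. The steepest members were Gtse1 (a mean of 2.24 per 100 cGy over both types), Ddit4l (1.64), Mgmt (1.28), Dnm3 (1.27), Dcxr (1.22), Exoc4 (0.83), Pqlc3 (0.82) and Cdc42bpg (0.79). The shallowest were Fam120a (0.09), Caml (0.11), Irgq (0.15) and Slc25a3 (0.15), which were kept because their order with dose was regular although the steps were small.

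The mean over the members of log2(count + 1) moved little at the lowest doses. Relative to the sham mouse it stood at -0.09 at 5 cGy and 0.03 at 10 cGy in Proton, and at -0.06 and 0.07 in Gamma. It reached 0.47 at 125 cGy in Proton and 0.53 in Gamma. At the doses outside the ranking, 150 and 200 cGy, it stood at 0.31 and 0.28 in Proton and at 0.47 and 0.46 in Gamma. In both types both high-dose mice thus lay below the mouse at 125 cGy and above the mice at 0 to 50 cGy.

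At the edge of the list the values changed hardly at all. The last members were Thrap3, D19Ertd737e and Gm16039, each with a smaller correlation of 0.68, and the first genes outside were Chn2 and Ddx46 at the same 0.68 and Fig4 at 0.67. Which genes are members also depended on single doses: when both mice of 1 dose were left out, 39 to 67 of the 87 genes were still listed, with the fewest when the 2 sham mice were left out.

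The members differ widely in level. Per kb of exonic length the mean count was highest for Rps2 (1420), a protein of the small ribosomal subunit with many near-identical pseudogenes among which reads could be split, Ddx3x (625), Rps27l (532) and Slc25a3 (360). It was lowest for Dnm3 (1.63), A830010M20Rik (3.51), Tbc1d2 (3.88) and Gm16039 (5.84). The median of the members was 41.9 counts per kb, and that of all 11363 genes was 50.6. Of the 87 genes 85 are annotated as protein coding and 2, BC029722 and Gm17251, as lincRNA. They lie on 20 chromosomes, with at most 9 on 1 chromosome, chromosome 2. Pigc and Dnm3, both members, overlap in part on opposite strands, and the sense counts separate them by strand. Cpne1, Mrps24, Ak1 and Sumo3 overlap another gene of mean count 20 or more on the same strand, so reads of the pair could be assigned to either.

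The doses of 150 and 200 cGy ask about genes that increase with dose up to 125 cGy in both types. The question is whether they are also high in mice that were not used to rank them. Counts were fitted in edgeR (quasi-likelihood test) with dose as a factor and radiation type as a covariate, and the mean of the 150 and 200 cGy levels was set against the mean of the 8 levels from 0 to 125 cGy. At a Benjamini-Hochberg adjusted p under 0.1 over the 11363 genes, 31 of 87 members (35.6%) were higher at the high doses, where the background over all genes was 17.7%. Lower counts were called for 7 members (8.05%) against a background of 14%. The 7 fell to 4 without the Proton mouse at 150 or at 200 cGy and reached 11 without the Gamma mouse at 75 cGy. Over all 11363 genes the lower ones moved as well, from 1586 with every mouse. They numbered 988 without the Proton mouse at 200 cGy and 2170 without the Gamma mouse at 75 cGy. The median log2 difference was 0.07 over the members, with 55 of 87 (63.2%) above 0, and -0.03 over all genes, with 45.4% above 0.

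After the offset for GC content and length 27 members (31.0%) were higher against a background of 8.88%, and 5 (5.75%) were lower against 7.22%. In both fits 24 members were higher. Polr2a, Megf9, Kif16b, Prkdc, Wdr7, Shroom4 and Herc3 were called higher only without the offset, and Homer3, Ilvbl and Sac3d1 only with it. The members lower in both fits were Enpep, BC029722 and Tbc1d7, and Cpne1 and Gm16039 were called lower only with the offset.

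The spread in this fit rests on the difference between the 2 mice of a dose, which the choice of genes with a like order in both types also bears on. The median standard error was 0.08 on the log2 scale over the members and 0.10 over all genes. With 2 dose ranges in place of the dose levels, so that the increase up to 125 cGy counts as spread, 21 members (24.1%) were higher against a background of 17.6%, and 6 (6.90%) were lower against 14.3%. The members exceeded the background by less in this fit. The reference is also the mean over 0 to 125 cGy, so a gene that stays at its level of 125 cGy is called higher without any further increase.

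**Figure D2:**
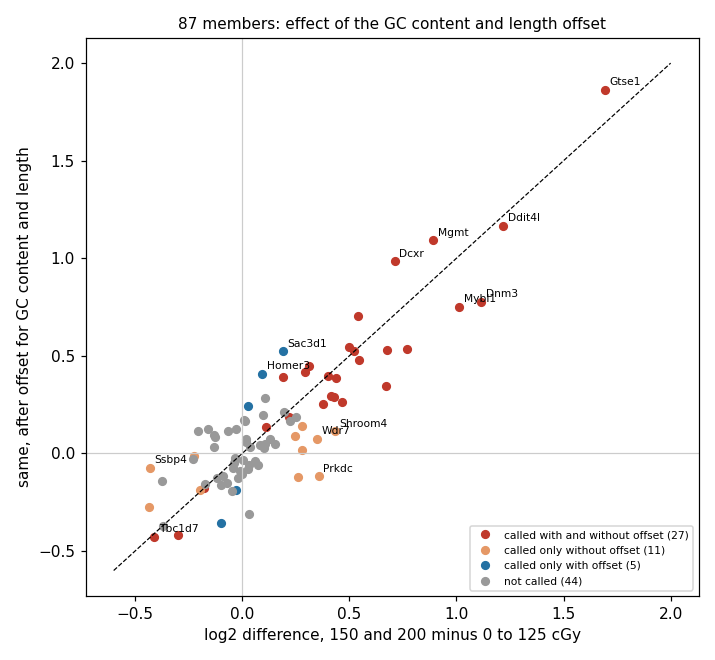
Each point is a member, with its log2 difference of 150 and 200 minus 0 to 125 cGy on the horizontal axis and the same difference after the offset for GC content and length on the vertical axis, where the dashed line marks equal values. Of the members 27 were called in both fits, 11 only without the offset and 5 only with it, and Gtse1, Ddit4l, Mgmt and Dcxr lie far from 0 on both axes.

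The calls are also given by rank, which comes from the same mice at 0 to 125 cGy that are the reference of the test, so that both measures share data. Among the 14 members ranked 1 to 25, 11 were higher and 0 lower, with a median log2 difference of 0.43. Among the 23 ranked 26 to 50, 11 were higher and 3 lower (median 0.09), and among the 25 ranked 51 to 75, 6 were higher and 1 lower (median 0.03). Of the 25 ranked 76 to 100, 3 were higher and 3 lower (median 0.02). After the offset the members called higher numbered 10, 9, 4 and 4 in the same order, and those called lower 1, 2, 0 and 2. Over all genes 17.7% were higher and 14% lower, and after the offset 8.88% and 7.22%. The values by rank are a description of the ranked groups, with no test between them.

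**Figure D3:**
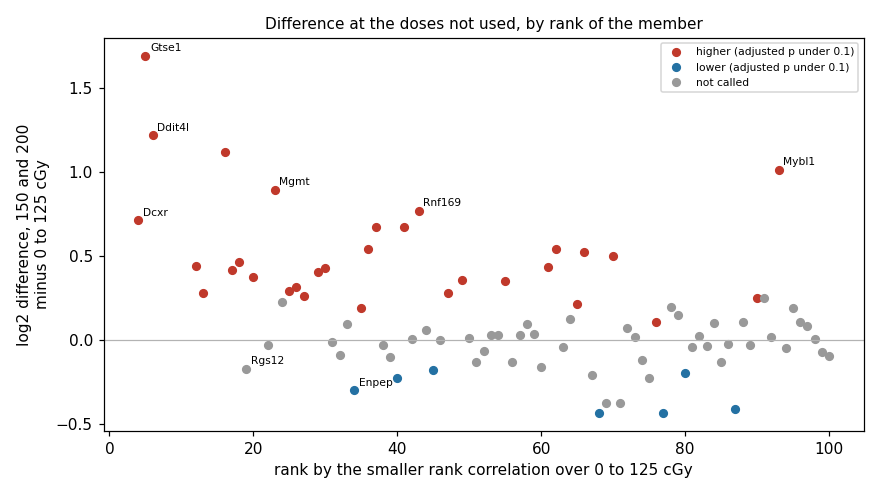
The horizontal axis is the rank of the member by the smaller rank correlation over 0 to 125 cGy and the vertical axis its log2 difference of 150 and 200 minus 0 to 125 cGy. Points called higher crowd at the left, where 11 of 14 members ranked 1 to 25 were higher. At the right 3 of 25 were higher and 3 lower, against 17.7% and 14% over all genes. Mybl1 and Rnf169 are high points at a lower rank.

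The members were grouped by what they are known to do, after they had been listed, and the results follow these groups. Of the 13 members tied to p53 or DNA damage, 10 (76.9%) were higher at the high doses and 0 lower (9 and 0 after the offset), with a median log2 difference of 0.40. For this and the following groups the backgrounds over all genes are 17.7% higher and 14% lower, and after the offset 8.88% and 7.22%, and the groups are small, so their counts are a description. Dcxr (chr11:120586713-120588595), which reduces L-xylulose, ranked first among the members. In the Proton mice its count was 95, 101, 98, 130, 131, 195, 187 and 233 from 0 to 125 cGy, then 203 at 150 and 214 at 200 cGy. In the Gamma mice it was 66, 71, 92, 94, 126, 182, 211 and 213, then 204 and 226. All 4 high-dose mice were above every mouse at 50 cGy or less, and among the mice at 75 to 125 cGy the values overlapped. The log2 difference was 0.71 ± 0.09 (SE; edgeR quasi-likelihood, Benjamini-Hochberg adjusted p = 1.12e-04), a 1.64-fold higher count, and 0.98 after the offset. With 2 dose ranges in place of the dose levels it was 0.61 and not called (adjusted p = 0.105), and it was not called by radiation type (adjusted p = 0.431 in Proton and 0.293 in Gamma, edgeR).

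Gtse1 (chr15:85690137-85707002), a protein of G2 and S phase that restrains p53, had the largest difference among the members. Its count over 0 to 125 cGy in Proton was lowest at 7, with a median of 18 and a highest value of 42, and 39 and 66 at 150 and 200 cGy. In Gamma it was lowest at 1, with a median of 18.5 and a highest value of 38, and 31 and 68 at the high doses. The mice at 200 cGy were above all others and the mice at 150 cGy were within the range of the lower doses. High and low doses differed by 1.69 ± 0.24 (log2; edgeR adjusted p = 2.43e-04), a 3.23-fold higher count. Its mean over 0 to 125 cGy was 19.6 in Proton and 18.1 in Gamma, so it passed the count minimum of 20 only through the high-dose mice. The difference of Gtse1 is therefore a description, and the counts of members called higher include it.

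Ddit4l (chr3:137284576-137291297), an inhibitor of mTOR signalling related to Ddit4, had counts of 14 to 80 over the 8 lower Proton doses (median 38.5) and 72 and 109 at 150 and 200 cGy. In Gamma they were 9 to 61 (median 35.5), then 64 and 79. Both high-dose Gamma mice were above all 8 lower ones, and in Proton only the mouse at 200 cGy was. On the log2 scale it differed by 1.22 ± 0.17 (adjusted p = 2.80e-04).

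Mgmt, the methyltransferase that removes alkyl groups from guanine in DNA, had 10 to 49 counts in the lower Proton doses (median 23.0) and 48 and 41 at the high doses. In Gamma it had 11 to 48 (median 19.5), then 46 and 37. No high-dose mouse was above the highest of the lower doses, yet all 4 were far above the sham mice, at 10 and 11. The log2 difference was 0.89 ± 0.15 (adjusted p = 8.60e-04), and 1.09 after the offset.

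Rnf169, a ubiquitin-binding protein that acts at DNA double-strand breaks, behaved otherwise. Over 0 to 125 cGy it had 162 to 220 counts in Proton (median 194.5) and 112 to 221 in Gamma (median 185.0). At 150 and 200 cGy it had 309 and 323 in Proton and 275 and 337 in Gamma, so that the groups did not overlap in either type. High and low doses differed by 0.77 ± 0.08 (log2; adjusted p = 3.11e-05), and 0.54 after the offset.

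Of the rest of this group, Rps27l, a ribosomal protein S27 relative and p53 target, was higher by 0.43 ± 0.06 (adjusted p = 2.39e-04). Ei24, a protein of the endoplasmic reticulum first found as a p53-induced gene, differed by 0.40, Fbxw7, the substrate receptor of a ubiquitin ligase, by 0.38, and Abhd4, a lipase of N-acyl phospholipids, by 0.31. These 3 genes and Rps27l were called in both fits. Prkdc, the catalytic subunit of the kinase for end joining, was higher by 0.36 without the offset and stood at -0.12 with it. Pold4, a small subunit of DNA polymerase delta, was at -0.13 and Dut, which removes dUTP, at 0.20, neither of them called.

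**Figure D4:**
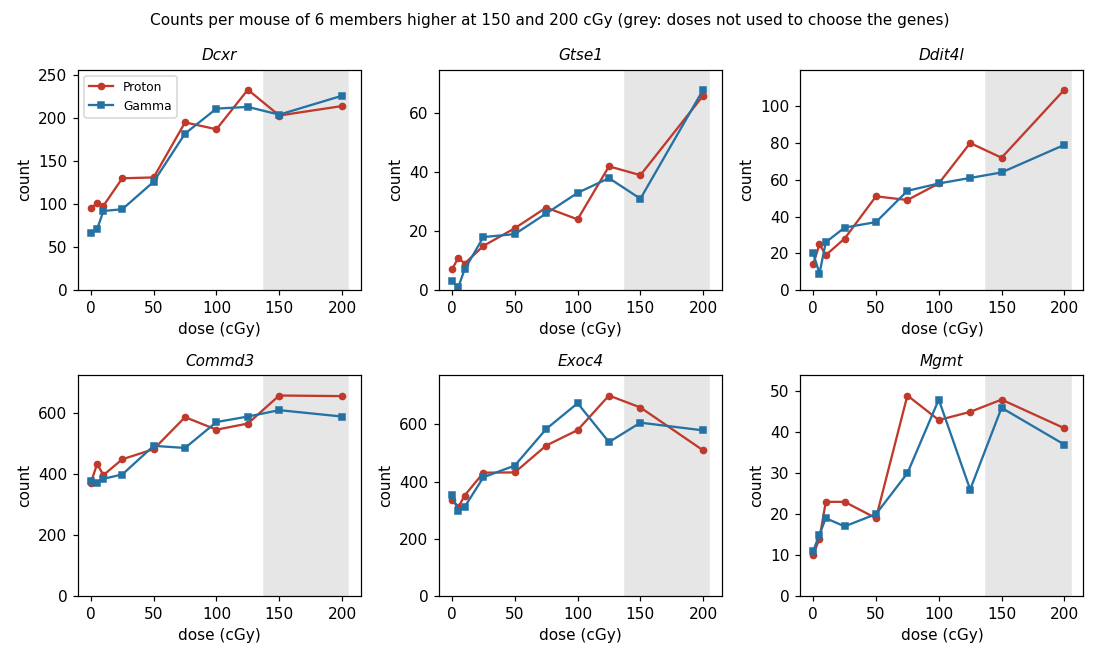
Counts of Dcxr, Gtse1, Ddit4l, Commd3, Exoc4 and Mgmt are plotted against dose in cGy for Proton (circles) and Gamma (squares). Each point is 1 mouse, and the doses that were not used to rank the genes are shaded in grey. The shaded points lie at or near the level of 100 and 125 cGy in most panels, and for Gtse1 the mice at 200 cGy reach 66 and 68 counts against at most 42 below.

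Lists of other p53 and damage genes give the setting. Of the 26 p53 targets named in the rule, 25 could be tested, and 17 (68%) were higher and 0 lower at the high doses (median 0.60). Many of these targets, among them Cdkn1a, Mdm2 and Bax, were called dose-responsive by the study in these same mice. Their direction is therefore not independent evidence. Of 31 tested genes of a further p53 target list, 14 (45.2%) were higher and 6 (19.4%) lower (median 0.26), and 8 of the 14 are members: Gtse1, Dcxr, Ddit4l, Ei24, Rps27l, Rnf169, Fbxw7 and Abhd4. The lower ones, none of them members, were Fdxr, Trp53i11, Pml, Steap3, Bhlhe40 and Crip2. With the offset 14 of the 31 (45.2%) were higher and 4 (12.9%) lower. On a list of DNA damage sensing and repair genes 9 of 24 (37.5%) were higher and 3 (12.5%) lower. After the offset these were 2 (8.33%) and 1 (4.17%), under the shares over all genes of 8.88% and 7.22%; the member on this list is Prkdc. Among 6 members also on a list that was chosen from these same mice (Dcxr, Ddx3x, Eif2ak2, Commd3, Ddit4l and Gtse1), all 6 were higher, which is not independent evidence of their direction. The lists of proliferation, circadian clock, glucocorticoid-induced, immediate early, integrated stress response, proteasome, autophagy and contractile genes held no member.

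Of 7 members of transcription and chromatin, 3 were higher and 1 lower. Mybl1, a transcription factor of the Myb family, had a low rank of 93 and yet the largest difference of this group. It had 58 to 96 counts in the lower Proton doses (median 78.0) and 156 and 188 at the high doses. The Gamma mice had 58 to 126 (median 74.0), then 136 and 153. All 4 high-dose mice were above all 16 others. On the log2 scale it differed by 1.01 ± 0.11 (adjusted p = 4.36e-05), and 0.75 after the offset. Polr2a, the largest subunit of RNA polymerase II, ran from 583 to 1156 counts in Proton, with its highest value at 125 cGy, and stood at 814 and 910 at the high doses. It was higher by 0.28 without the offset and by 0.14 with it, the latter not called. Eed, a core subunit of Polycomb repressive complex 2, was higher by 0.22 ± 0.05 (adjusted p = 9.41e-03) and in both fits. Ets2, Mxd4 and Thrap3 lay within 0.02 of 0.

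Of 7 members of RNA helicases, translation and the nuclear pore, 4 were higher and 1 lower. Ddx3x (chrX:12858096-12871178), an RNA helicase that acts in translation initiation, had 2748 to 3566 counts in the lower Proton doses (median 3179.5), then 4262 and 3862. In Gamma it had 2448 to 3579 (median 2931.5), then 4279 and 4480. Both high-dose mice of each type were above all 8 lower ones. The log2 difference was 0.47 ± 0.06 (adjusted p = 2.32e-04), and 0.26 after the offset. On a list of 20 RNA helicases and splicing factors 7 were higher and 0 lower, but after the offset 4 and 3.

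Eif2ak2, the kinase PKR that is activated by double-stranded RNA and induced by interferon, had 79 to 127 counts in the lower Proton doses (median 102.5), then 172 and 136. The Gamma mice had 69 to 108 (median 90.5), then 156 and 142. Again no high-dose mouse overlapped the lower ones of its type. High and low doses differed by 0.67 ± 0.07 (log2; adjusted p = 4.30e-05), and 0.53 after the offset. It was the only one of 11 tested interferon-stimulated genes on the list that was higher, and 0 were lower (median -0.14).

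Aaas, a protein of the nuclear pore complex, was higher by 0.54 ± 0.08 (adjusted p = 4.02e-04), and Qars, the glutaminyl-tRNA synthetase, by 0.11 ± 0.05 (adjusted p = 0.0989). Dph2, which acts in diphthamide synthesis on elongation factor 2, was lower, with 48 and 36 counts at the high Proton doses and 30 and 40 in Gamma, against medians of 52.0 and 49.5 below. Its log2 difference of -0.43 ± 0.12 (adjusted p = 0.0199) became -0.27 after the offset, not called. Rps2 and the mitochondrial ribosomal gene Mrps24 were at -0.07 and -0.03.

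The 12 members of membrane traffic held 5 higher genes and 1 lower. Commd3, a member of the COMMD family that takes part in endosomal recycling, had 371 to 586 counts in the lower Proton doses (median 464.5), then 657 and 655. In Gamma it had 371 to 588 (median 441.5), then 609 and 588. The Proton groups did not overlap, and the Gamma mouse at 200 cGy equalled the mouse at 125 cGy. On the log2 scale it differed by 0.44 ± 0.06 (adjusted p = 1.26e-04), and 0.39 after the offset. Dnm3, a dynamin GTPase of endocytosis, was higher by 1.12 ± 0.19 (adjusted p = 1.12e-03) on 8 to 46 counts per mouse. Exoc4, a subunit of the exocyst that tethers secretory vesicles, was higher by 0.41 ± 0.07 (adjusted p = 7.35e-04), although its highest counts, 701 in Proton and 674 in Gamma, came at 125 and 100 cGy.

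Wdr7 and the kinesin Kif16b were higher by 0.35 and 0.28 and, after the offset, stood at 0.08 and 0.02, not called. Tbc1d7, a subunit of the TSC complex that restrains mTORC1, had 64 and 58 counts at the high Proton doses against 68 to 92 below, and 61 and 43 in Gamma against 50 to 93. Both high-dose Proton mice lay below all 8 lower ones. The log2 difference was -0.41 ± 0.10 (adjusted p = 0.0110), and -0.43 after the offset. The other 6 members of the group, Bloc1s2, Commd4, Scfd2, Snx5, Tbc1d2 and Vti1a, were not called and ran from -0.38 (Tbc1d2) to 0.23 (Bloc1s2).

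Among 13 members of signalling, channels and cytoskeleton, 3 (23.1%) were higher and 2 (15.4%) lower, against 17.7% and 14% over all genes, and after the offset 3 (23.1%) and 1 (7.69%), against 8.88% and 7.22%. Trpc1, a cation channel subunit, had 44 to 67 counts in the lower Proton doses, then 64 and 60, and 36 to 60 in Gamma, then 83 and 87. The Gamma groups did not overlap, whereas the Proton mice lay within the range of the lower doses. Its log2 difference was 0.52 ± 0.12 in both fits (edgeR adjusted p = 6.91e-03 without the offset and 0.0180 with it). Cdc42bpg, a kinase that binds CDC42, was higher by 0.29, and Shroom4, an actin-binding protein, by 0.43 without the offset and 0.11 with it.

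Tnfrsf1a, the first receptor of tumor necrosis factor, had 711 to 1016 counts in the lower Proton doses (median 775.0), then 676 and 666. The Gamma mice had 680 to 889 (median 749.5), then 630 and 718. The high-dose Proton mice were below all 8 lower ones. Its log2 difference of -0.23 ± 0.06 (adjusted p = 0.0101) shrank to -0.01 after the offset. Rgs12, a regulator of G protein signalling ranked 19, had its highest Proton count of 121 at 125 cGy and 80 and 69 at the high doses; it stood at -0.17, not called. Irgq was lower, at -0.20 (adjusted p = 0.0476), and stood at -0.19 after the offset, not called (adjusted p = 0.118, edgeR in both fits). Arhgap24, Caml, Cpne1, Gpr137, Homer3, Map4k3 and Tubgcp2 were not called without the offset.

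The 17 members of mitochondria and metabolism had 1 higher and 1 lower gene and a median log2 difference of -0.00. Nubp1, a factor of cytosolic iron-sulfur cluster assembly, was higher by 0.19 ± 0.07 (adjusted p = 0.0705) and by 0.39 after the offset. Enpep, the aminopeptidase A that cleaves angiotensin II, had 105 to 201 counts in the lower Proton doses (median 163.0), then 145 and 117. In Gamma it had 103 to 173 (median 135.5), then 138 and 91. Only the Gamma mouse at 200 cGy was below all lower ones. Its log2 difference was -0.30 ± 0.09 (adjusted p = 0.0259), and -0.42 after the offset. With 2 dose ranges in place of the dose levels it was not called (adjusted p = 0.132, edgeR).

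The other 15 were not called without the offset: Abhd10, Acyp1, Ak1, Bscl2, Dera, Galntl4, Gnpda2, Gsto1, Ilvbl, Mocos, Pigc, Pmpca, Slc25a3, Slc35f5 and Tmem65, from -0.37 (Dera) to 0.15 (Pigc). Several had their highest Proton count in the 75 cGy mouse that stood apart: Gsto1, a glutathione transferase, had 399 counts there, 2.24 times the next Proton mouse below 150 cGy, and Bscl2, the lipid droplet protein seipin, had 743, or 1.81 times the next. That mouse had the highest of the 8 Proton counts for 31 of the 87 members, while over all genes the share was 30.5%. Without it, 32 members were higher and 9 lower at the high doses, and the share over all genes in that fit is not given here.

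Of 6 members of the ubiquitin and SUMO systems, Herc3 was higher by 0.25 ± 0.09 (adjusted p = 0.0591) without the offset, and Kbtbd10, Kctd9, March9, Mkrn2 and Sumo3 were not called. Of 12 other or little described members, 4 were higher and 1 lower. 4933407H18Rik had 113 to 155 counts in the lower Proton doses and 233 and 196 at the high doses, and 81 to 173 in Gamma, then 221 and 181, with no overlap in either type. It was higher by 0.67 ± 0.08 (adjusted p = 1.14e-04), and by 0.35 after the offset. Thyn1 was higher by 0.54 and Pqlc3 by 0.50, both in both fits, and Megf9 by 0.26 only without the offset. BC029722, a lincRNA, was lower, at -0.18 ± 0.06 (adjusted p = 0.0379), with no GC content value and so the same value in the offset fit. A830010M20Rik, D19Ertd737e, Fam120a, Gm16039, Gm17251, Sac3d1 and Tmem19 were not called without the offset.

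**Figure D5:**
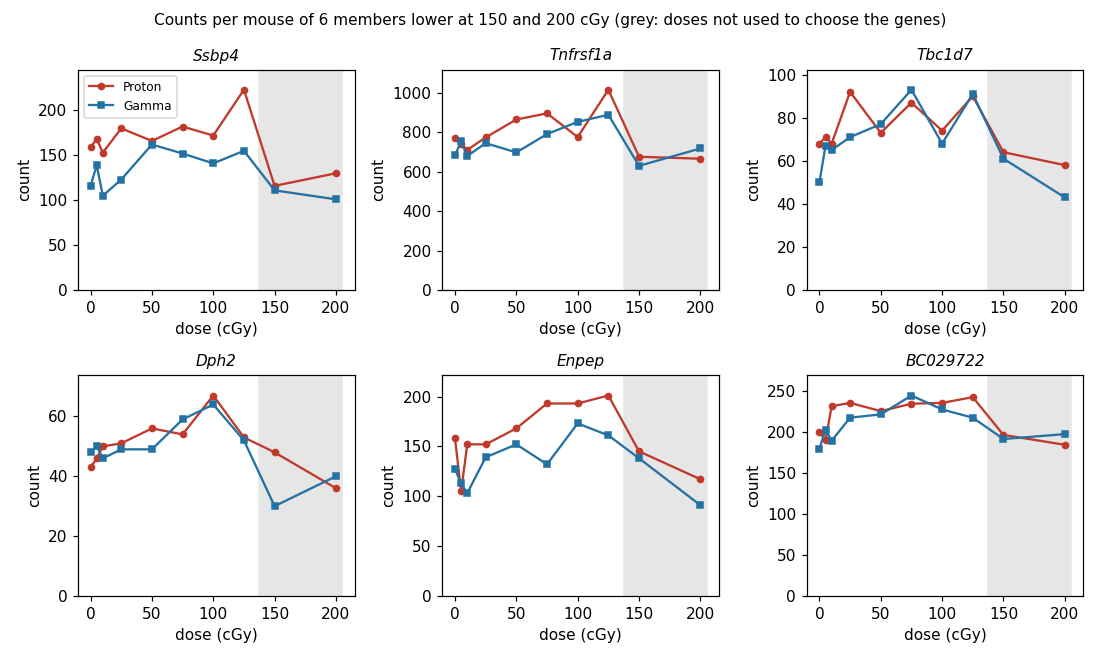
Counts of Ssbp4, Tnfrsf1a, Tbc1d7, Dph2, Enpep and BC029722 are plotted against dose in cGy for Proton (circles) and Gamma (squares). Each point is 1 mouse, and the doses that were not used to rank the genes are shaded in grey. In each panel the highest value lies between 75 and 125 cGy and the shaded points are lower, as for Ssbp4 with 223 counts in Proton at 125 cGy and 116 and 130 at 150 and 200 cGy.

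Ssbp4, a single-stranded DNA-binding protein, had the smallest p among the lower members. It had 153 to 223 counts in the lower Proton doses (median 170.0), then 116 and 130. The Gamma mice had 105 to 162 (median 140.0), then 111 and 101. Both Proton mice were below all 8 lower ones, and in Gamma only the mouse at 200 cGy was. High and low doses differed by -0.43 ± 0.08 (log2; adjusted p = 2.32e-03) and -0.07 after the offset, where it was not called. Its transcript has the highest GC content of the members that have a value, 65.2%, against a median of 49.5% over the members. The calls of Dph2, Enpep, Irgq and BC029722 were each lost when 1 of the high-dose mice was left out, at adjusted p from 0.101 to 0.282 (edgeR).

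Set against the mice at 100 and 125 cGy alone, whose counts helped to choose the members, 6 members (6.90%) were higher against a background of 13.2%, and 13 (14.9%) were lower against 8.85%. These counts are a description, since the choice favours high values at 100 and 125 cGy. The 6 were Ddx3x, Eif2ak2, 4933407H18Rik, Rnf169, Wdr7 and Mybl1. For 19 members the mean of the high-dose mice was above the mean of 100 and 125 cGy in both types, and for 7 it was below the mean of 0 to 10 cGy in both. In Proton the high-dose mean lay between these levels for 44 members, and in Gamma for 47. These counts of means were taken over the members only. Without a share over all genes they cannot be read as a trait of the members.

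The same 6 genes were those in which both high-dose mice were above all 8 lower ones in both radiation types. This share of 6.90% was under the background of 8.96%. For 0 members both high-dose mice were below all lower ones in both types, against a background of 3.71%. Every other member called higher in the joint fit overlapped the lower doses in at least 1 type.

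Taken by radiation type, with the mice at 0 to 125 cGy as 1 group, the members stood near the background. In Proton 8 members (9.20%) were higher against 11.6%, and 2 (2.30%) lower against 7.04%. In Gamma 12 (13.8%) were higher against 11.6%, and 1 (1.15%) was lower against 6.55%. After the offset 2 (2.30%) were higher in Proton against 3.48% and 4 (4.60%) in Gamma against 3.83%, and 0 were lower in either type against 2.23% and 2.77%. In these fits the increase up to 125 cGy counts as spread within the group, and the median standard error was 0.17 over the members and 0.15 over all genes. Higher in both types without the offset were Ddx3x, Eif2ak2, 4933407H18Rik, Rnf169, Wdr7 and Mybl1 with log2 differences from 0.32 (Wdr7 in Proton) to 1.16 (Mybl1 in Proton). The lower ones were Ssbp4 and Irgq in Proton and Dph2 in Gamma.

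The difference between the types in the high-dose change was tested as an interaction. By edgeR's quasi-likelihood test 0 members were called, as were 0 of all genes (0%), and at an unadjusted p under 0.05 there was 1 member and 225 genes in all. That member was Trpc1, whose Proton change minus its Gamma change was -0.55 ± 0.26 (adjusted p = 0.999). The median difference of the members was -0.09, with 27 of 87 (31.0%) above 0. Over all genes the median was -0.01, with 47.2% above 0.

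Proton and Gamma mice at matched dose also gave 0 calls by edgeR (0% of all genes), with 8 members and 985 genes at an unadjusted p under 0.05, and DESeq2 called 1 member and 16 higher and 53 lower genes in all. Of the 20 mice in this test 16 also chose the members, by their order within a radiation type and not by the level between types, so the members' counts here are a description. That member was Ssbp4, higher in Proton by 0.32 ± 0.06 on the log2 scale (edgeR adjusted p = 0.152, DESeq2 adjusted p = 0.0911). In Proton it had more counts than in Gamma at all 10 doses. Mocos, which activates molybdenum enzymes, was higher in Proton by 0.47 ± 0.10 (edgeR adjusted p = 0.176). Of the 87 members 61 (70.1%) were higher in Proton, with a median of 0.04. Over all genes the share was 54.2% and the median 0.01.

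Between 200 and 150 cGy edgeR called 0 members and 0 of all genes (0%), and at an unadjusted p under 0.05 there were 7 members and 420 genes. Gtse1 was higher at 200 cGy by 0.97 ± 0.42, with 66 and 68 counts against 39 and 31. Enpep had 117 and 91 against 145 and 138, a difference of -0.43 ± 0.16. In both genes the 2 mice of each dose lay apart from those of the other, and adjusted over all genes neither passed (adjusted p = 0.999 for each, edgeR).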

How the data were processed

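Thoracic aorta of 20 mice was profiled, 1 mouse per dose and radiation type. Per the labels and the study's methods the authors made stranded, polyA-selected libraries, sequenced 100-base paired reads (CASAVA 1.8.1), aligned them with STAR 2.5.2a to mm9 and resampled them with PORT to a common depth, which removes depth differences but not differences in base composition. The deposited values are counts of sense fragments per gene, with no further normalization. The p-values measure the spread between single mice.

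The members, the gene lists and the tests were chosen with earlier results of these data known, and the grouping by role was made after the members were listed. Genes with a mean count of 20 or more were tested with edgeR 4.0.16 (R 4.3.3; TMM scaling, robust quasi-likelihood F-test, threshold 0.1 after Benjamini-Hochberg adjustment) in a model with dose as a factor and radiation type, and in a model of 4 groups, radiation type by dose range. The offset fit removed, per library, a lowess fit (span 0.3) on GC content and transcript length, which 11142 of 11363 genes had. DESeq2 1.42.0, other scalings, filters, references and left-out mice were alternatives. Annotation was GENCODE M1 on the mm9 assembly. Member genes were named by rule: the 12 with the highest smaller correlation, the edge of the list, up to 10 per direction by p at the high doses, up to 5 per direction in the other tests, those on a gene list, and extremes of slope and level; other members were named when listed by role. The scripts were tested on simulated data. The values of 1 member are not reported here, though it is counted among the members. All sample columns were mapped.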

Additional observations from a re-analysis of the deposited data

Results flagged for a closer look

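In 261 groups of 4 to 10 mice of the members' counts, values were compared with the nearest other mouse by Dixon's test at 95%, which chance alone passes in about 1 group in 20, and 16 counts lay apart. The mice at 0 to 125 cGy of a radiation type differ in dose, so a value apart at the ends of the dose range is not only spread. The Proton mouse at 75 cGy gave 6 of them: Gsto1 with 399 counts against 178 in the nearest mouse, Bscl2 743 against 411, Pmpca 598 against 406, Tbc1d2 50 against 26, Kif16b 195 against 160 and Slc25a3 2608 against 2191. Its fat and heart muscle marker sums were also the highest of the mice up to 125 cGy, and their part in these counts was not tested. At the low end, the Proton mouse at 5 cGy had 1369 counts of Fam120a against 1471 and 185 of Slc35f5 against 252. At 100 and 125 cGy, Gsto1 had 206 counts against 159 in Gamma, Nubp1 197 against 164 in Gamma and Ssbp4 223 against 182 in Proton. Pold4 had 172 counts at 75 cGy in Gamma, against 149. Among the 4 high-dose mice, the Proton mouse at 150 cGy had 80 counts of Rgs12 against 70 and 29 of Bloc1s2 against 45, and the Gamma mouse at 150 cGy had 707 of Ei24 against 840 and 2768 of Rps2 against 2421.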

How the results depend on the processing

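The count of members higher at 150 and 200 cGy, 31, ran from 25 to 32 when single mice were left out, while all genes higher ran from 1537 to 2283. The members' count was 29 with DESeq2 and 28 at a threshold of 0.05. It was 30 to 32 under the other scalings, a lower count minimum or without the 75 cGy mice. With a mean count of 50 or more, 74 members remained and 27 were higher. For these fits, from DESeq2 to the count minimum, the share over all genes is not given. They show only how far the members' count moved. Against 100 and 125 cGy it was 6, with 13 lower, 1006 of all genes lower and a median of -0.066. The 7 members lower became 4 to 11 when single mice were left out, with 4 without the Proton mouse at 150 or at 200 cGy and 11 without the Gamma mouse at 75 cGy, and all genes lower became 988 to 2170. The offset left 1009 genes higher and 820 lower, and Gpr137, not called, turned from -0.16 to 0.13. It also ended the calls of Ssbp4, Tnfrsf1a, Dph2 and Irgq, although Irgq moved only from -0.20 to -0.19. DESeq2 ended those of Irgq and BC029722. In the 2-range fit 21 members (24.1%) were higher against 17.6% over all genes, and 6 (6.90%) were lower against 14.3%. The calls it ended include those of Dcxr (edgeR adjusted p = 0.105) and Enpep (edgeR adjusted p = 0.132). The causes were not tested.

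By radiation type, the offset left 2 members higher and 0 lower in Proton (396 and 253 of all genes) and 4 and 0 in Gamma (435 and 315). With 1 high-dose mouse left out, so that the lone mouse is assumed to vary like the others, members higher ran from 2 to 8 in Proton and from 5 to 11 in Gamma, with 2 without the Proton mouse at 150 cGy and 5 without the Gamma mouse at 150 cGy. Members lower ran from 0 to 2 and from 0 to 1, and were 3 in Gamma without the Proton mouse at 75 cGy, a fit added after seeing the data. All genes ran from 569 to 1293 higher and 211 to 763 lower in Proton, and from 728 to 1280 and 208 to 725 in Gamma. DESeq2 called 1 gene lower in the interaction. Between Proton and Gamma, DESeq2 called 16 genes higher (1 member) and 53 lower, and edgeR 1 higher with the offset, 10 higher and 8 lower without both 75 cGy mice, and 12 and 12 without the Proton one, also added later.

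Of the 87 members, 39 to 67 stayed when 1 dose was left out, and 52 with Pearson correlations. Each combination of dose and radiation type had 1 mouse. The labels give the 2 types no shared replicate number; mice were matched by dose, which is a factor in the main model.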
